A study of Homo sapiens with 6 samples.

Results

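The genes described here encode the proteins by which a cell takes up iron, senses it and sends it out again. They and the gene lists used below were chosen by name, with earlier results of these data known. The genes are TFRC, SLC11A2, SLC39A14, STEAP3, SLC40A1, ACO1, IREB2, FBXL5, NCOA4 and PCBP1. All 10 are among the 28563 genes of the expression table, and 9 of them are among the 14400 genes that averaged 0.5 FPKM or more over the 6 libraries and were tested. HepG2 is an established human cell line, which the paper describes as hepatocellular carcinoma. Its cells were grown in plates that were split at random between both treatments, and were treated for 24 h with polydatin (PD), the glucoside of resveratrol, or with the vehicle DMSO alone. The sample labels give the PD dose as 336 µM, whereas the study's text gives a lower one. Poly(A) RNA from 3 samples per treatment was sequenced. PD was used at 1 dose and 1 time, so neither a dose response nor a time course could be read, and all libraries came from 1 cell line under the same culture conditions.

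Iron reaches most cells bound to transferrin, which the transferrin receptor carries into endosomes. There the ferric iron is reduced by STEAP3 and leaves for the cytosol through DMT1, the product of SLC11A2, or through ZIP14, the product of SLC39A14. ZIP14 is also the main route by which hepatocytes take up iron that is not bound to transferrin. In the cytosol PCBP1 hands iron to ferritin, NCOA4 delivers ferritin to lysosomes for its release, and ferroportin, the product of SLC40A1, is the exporter. Cells adjust these proteins largely after transcription. IRP1 (the gene ACO1) and IRP2 (the gene IREB2) bind hairpins called iron-responsive elements (IREs) when iron is scarce, which protects the TFRC mRNA from decay through its 3′ UTR and blocks translation of the ferritin and ferroportin mRNAs through their 5′ UTR. When iron is plentiful, IRP1 holds an iron-sulfur cluster and acts as an aconitase, and FBXL5, an iron-binding ubiquitin ligase subunit, has IRP2 degraded.

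The IRE sets TFRC and SLC40A1 apart in the textbook account, so the hairpins found in the transcripts are shown first. The UTRs of GENCODE release 44 on GRCh38 (hg38, the build of the deposited data) were searched on the transcribed strand for a C, 5 bases, the loop CAGTGN or CAGAGN, and 5 bases that pair with the first 5, with G-T pairs allowed. Each hairpin is printed 5′ to 3′ as a run of 27 bases of the transcribed strand, with the loop in capitals. The 3′ UTR of TFRC, on the minus strand of chromosome 3, held 5 such hairpins, from its start to its end at chr3:196051030-196051056, chr3:196050980-196051006, chr3:196050576-196050602, chr3:196050511-196050537 and chr3:196050464-196050490.
TFRC hairpin a: tttatcagtgaCAGAGTtcactataaa
TFRC hairpin b: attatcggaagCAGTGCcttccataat
TFRC hairpin c: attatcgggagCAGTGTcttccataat
TFRC hairpin d: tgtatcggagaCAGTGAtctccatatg
TFRC hairpin e: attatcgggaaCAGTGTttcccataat
The exporter gene had its hairpin at the other end of the transcript, in the 5′ UTR (chr2:189580662-189580688, minus strand), as did both ferritin subunits, FTH1 (chr11:61967575-61967601, minus strand) and FTL (chr19:48965336-48965362, plus strand), which are shown for comparison.
SLC40A1 hairpin: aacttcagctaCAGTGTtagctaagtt
FTH1 hairpin: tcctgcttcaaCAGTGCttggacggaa
FTL hairpin: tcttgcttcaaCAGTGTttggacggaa
SLC11A2 had a hairpin with the stem interrupted by 1 unpaired base on its 3′ side, in the 3′ UTR of 4 of its transcripts (chr12:50988270-50988296, minus strand).
SLC11A2 hairpin: gccatcagagcCAGTGTgtttctatgg

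These letters are not rare enough to mark an IRE by themselves. Of 19702 protein-coding genes, 82 (0.416%) held the full-stem hairpin in a 5′ UTR and 274 (1.39%) in a 3′ UTR, and 608 (3.09%) held the version with 1 unpaired base in either UTR. In canonical transcripts the full-stem hairpin occurred 9.21 times per megabase of 5′ UTR and 6.99 times per megabase of 3′ UTR. Only 10 genes held 2 or more full-stem hairpins, and TFRC, with 5 in a canonical 3′ UTR of 2658 bases, was the 1 gene with so many. STEAP3 also had a full-stem match and IREB2 an interrupted one, both in the 3′ UTR. No match to these letters was found in the UTRs of ACO1, NCOA4, FBXL5, PCBP1 or SLC39A14, which says nothing about other forms of the hairpin. IRP binding was not measured in this study.

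Whole fragments (read pairs) could be worked back from the FPKM, in which fragments are divided by the gene's length and by the library's total. The libraries held 16763318 to 17274927 fragments with DMSO and 16308476 to 18071632 with PD, and the 9 tested iron genes had between 511 and 12357 fragments in a library. Libraries of the same treatment were alike but not duplicates, with a chi-square per gene of 2.30 to 3.78 against 52.3 to 61.0 between treatments. The liver label was checked with 20 hepatocyte markers. Of these, 10 were listed in the table, and 3 (CPS1, RBP4 and CEBPA) reached a mean of 1 FPKM in a treatment. The sum of the listed markers was 222.4 to 229.3 FPKM with DMSO and 108.6 to 113.8 FPKM with PD, nearly all of it CPS1, an enzyme of the urea cycle, which fell from 225 to 109 FPKM (limma adjusted p = 1.57e-06). Without CPS1 the sum went the other way, with 0.752 to 0.824 FPKM in DMSO and 2.53 to 3.202 FPKM in PD. HNF4A, APOA1, SERPINA1, FGA and FGG stayed under 0.1 FPKM on average in both treatments, and ALB, AFP and TTR are among the 10 markers that the table used here does not list. The markers thus go against the hepatocyte label apart from CPS1, and the cells are called HepG2 only as the labels call them. TF, which encodes transferrin, was at 0 in 5 libraries and at 0.00716 FPKM in PD replicate 3. Markers of fibroblasts summed to 4.40 to 5.29 FPKM with DMSO and 4.75 to 5.05 FPKM with PD, and none of the blood cell, intestinal or squamous epithelium markers reached 1 FPKM. The part of cell state or of other cells in the changes below was not tested, and in RNA from whole cultures a change in the share of some cells cannot be told apart from a change of RNA per cell.

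After 24 h of PD, the transferrin receptor mRNA was 3.54-fold lower than in DMSO, the reductase STEAP3 was up, and most other iron genes moved by much less. Of the 9 tested genes, 2 rose (STEAP3 and ACO1), 5 fell (TFRC, SLC11A2, IREB2, FBXL5 and SLC39A14) and 2 did not pass the test (NCOA4 and PCBP1), by limma on log2(FPKM + 1) with a Benjamini-Hochberg adjusted p of at most 0.05 over all tested genes. Calls were common in these libraries: 58.1% of all tested genes were called, 31.9% as higher and 26.2% as lower, so 7 called genes out of 9 (77.8%) is a share to be read against that background. Of all tested genes, 1.57% fell by at least 2-fold, TFRC among them, and 2.04% rose by that much, with none of the 9 iron genes among them. These shares depend on the pseudocount, since 520 genes passed with 2-fold here, 1248 with a pseudocount of 0.1 and 1735 by voom, while TFRC stayed the 1 iron gene that did. Values of both treatments did not overlap for 7 of the 9 genes, as for 65.4% of all tested genes. The median log2 fold change was -0.15 for the 9 genes and 0.01 for all tested genes.

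**Figure D1:**
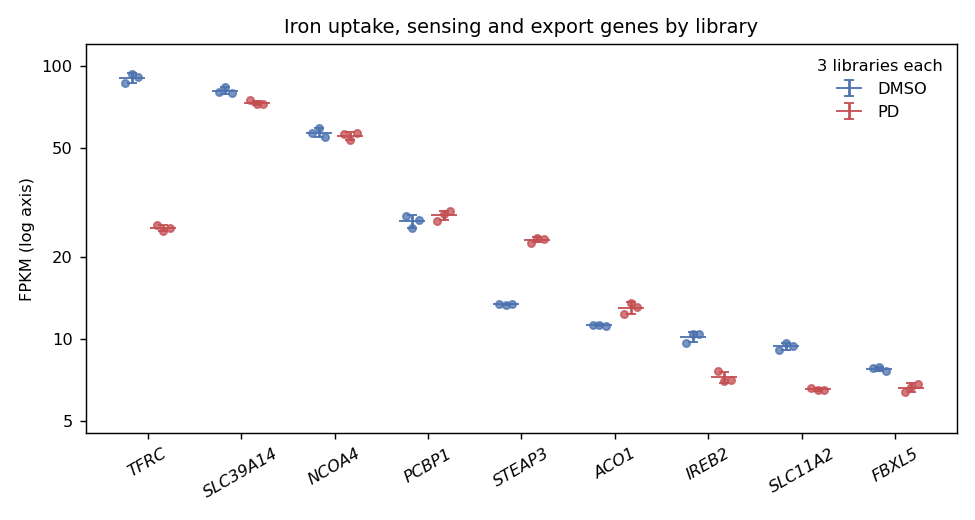
FPKM (log axis) of the 9 tested iron genes in each library, ordered by their level in DMSO. Points are libraries (3 DMSO, 3 PD), long bars are means and whiskers are SD. TFRC moved from 90.0 FPKM in DMSO to 25.4 FPKM in PD, STEAP3 moved up from 13.4 to 23.0 FPKM, and NCOA4 and PCBP1 overlapped between treatments.

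TFRC (ENSG00000072274, chromosome 3, 196012511 to 196082153, minus strand) encodes the receptor that brings transferrin into the cell. Its FPKM was 86.1, 93.5 and 90.6 in the DMSO libraries and 26.1, 24.7 and 25.4 in the PD libraries. All PD libraries lay far under all DMSO libraries, and the spread within a treatment was small beside the gap. The mean fell from 90.0 ± 3.72 (SD, n = 3) to 25.4 ± 0.699 FPKM (SD, n = 3), by 71.8%, which is 3.54-fold lower. The log2 fold change was -1.78 (SE 0.04, 95% confidence interval -1.88 to -1.69, limma adjusted p = 8.2e-07). These levels rest on 11728 to 12357 fragments with DMSO and 3273 to 3721 with PD, so counting error was small beside the gap. TFRC had the 18th lowest log2 fold change of the 14400 tested genes. Its exons share 191 bases with an antisense transcript that the table does not list, and reads of the 2 strands could not be told apart in those bases because the library kit does not mark strand.

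SLC11A2 (ENSG00000110911, chromosome 12, 50979401 to 51028566, minus strand), the gene of the endosomal iron carrier DMT1, also fell, but far less than the receptor. It measured 9.12, 9.61 and 9.41 FPKM with DMSO and 6.63, 6.47 and 6.51 FPKM with PD. The treatments did not overlap, and the PD libraries lay within a narrow band. The mean fell by 30.3%, from 9.38 ± 0.250 to 6.54 ± 0.0834 FPKM (n = 3 each, SD), and the log2 fold change was -0.46 (SE 0.04, 95% confidence interval -0.56 to -0.36, limma adjusted p = 8.33e-05). The gene makes transcripts with and without the printed hairpin, and values per gene cannot separate them.

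STEAP3 (ENSG00000115107, chromosome 2, 119223831 to 119265652, plus strand) encodes the endosomal ferrireductase that prepares iron for DMT1. It went the opposite way, with 13.4, 13.3 and 13.4 FPKM in the DMSO libraries and 22.5, 23.5 and 23.2 FPKM in the PD libraries. The gap between treatments was many times the spread within either of them. The mean rose by 72.5%, from 13.4 ± 0.0654 to 23.0 ± 0.528 FPKM (n = 3 each, SD), and the log2 fold change was 0.74 (SE 0.03, 95% confidence interval 0.66 to 0.83, limma adjusted p = 5.8e-06). In order of log2 fold change from the highest it was gene 827 of the 14400. STEAP3 shares 500 exon bases with STEAP3-AS1, whose own level was 0.212 FPKM with DMSO and 0.181 FPKM with PD.

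SLC39A14 (ENSG00000104635, chromosome 8, 22367278 to 22434129, plus strand) encodes ZIP14 and was among the most abundant of the iron genes in both treatments. It measured 80.3, 83.5 and 79.1 FPKM with DMSO and 74.5, 72.5 and 72.2 FPKM with PD. The ranges did not overlap, and the gap between them was slightly wider than the spread within either treatment. The mean fell by 9.73%, from 81.0 ± 2.27 to 73.1 ± 1.27 FPKM (n = 3 each, SD), and its log2 fold change was -0.15 (SE 0.03, 95% confidence interval -0.22 to -0.07, limma adjusted p = 0.00596). Between 8175 and 9714 fragments lay behind each value.

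SLC40A1 (ENSG00000138449, chromosome 2, 189560590 to 189583758, minus strand), the gene of the exporter ferroportin, was close to absent from these libraries. It had 1 fragment in DMSO replicate 2, which is 0.0138 FPKM, and 0 fragments in the other 2 DMSO libraries and in all 3 PD libraries. A count of 0 allows up to 3 fragments, which for this gene is 0.0383 to 0.0425 FPKM depending on the library and covers counting error only. Both treatments were at or under that limit, so the gene was not tested and no fold change is given. HAMP, the gene of the hormone hepcidin that removes ferroportin from the cell surface, is not listed in the expression table and has no value here.

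The sensors moved in different directions. ACO1 (ENSG00000122729, chromosome 9, 32384603 to 32454769, plus strand), the gene of IRP1, measured 11.2, 11.3 and 11.1 FPKM with DMSO and 12.3, 13.5 and 13.1 FPKM with PD. IREB2 (ENSG00000136381, chromosome 15, 78437431 to 78501453, plus strand), the gene of IRP2, measured 9.67, 10.4 and 10.4 FPKM with DMSO and 7.64, 6.995 and 7.06 FPKM with PD. Neither gene's treatments overlapped, with ACO1 higher and IREB2 lower in every PD library. ACO1 rose by 15.8%, from 11.2 ± 0.0713 to 13.0 ± 0.641 FPKM (n = 3 each, SD), and its log2 fold change was 0.19 (SE 0.05, 95% confidence interval 0.09 to 0.30, limma adjusted p = 0.00792). IREB2 fell by 28.9%, from 10.2 ± 0.429 to 7.23 ± 0.351 FPKM (n = 3 each, SD), and its log2 fold change was -0.44 (SE 0.05, 95% confidence interval -0.56 to -0.32, limma adjusted p = 0.000296). Both IRPs are controlled mainly as proteins, ACO1 by its iron-sulfur cluster and IREB2 by degradation, and neither protein was measured.

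FBXL5 (ENSG00000118564, chromosome 4, 15604381 to 15681679, minus strand), which carries IRP2 to its ubiquitin ligase, measured 7.81, 7.85 and 7.63 FPKM with DMSO and 6.38, 6.66 and 6.85 FPKM with PD. Every PD library was under every DMSO library, by a margin wider than the spread within either treatment. The mean fell by 14.6%, from 7.76 ± 0.118 to 6.63 ± 0.239 FPKM (n = 3 each, SD), and its log2 fold change was -0.20 (SE 0.04, 95% confidence interval -0.31 to -0.10, limma adjusted p = 0.00662). It had the fewest fragments of the 9 tested genes, 597 to 617 with DMSO and 511 to 534 with PD. Its overlap with the opposite-strand gene FAM200B, which went from 3.66 to 2.81 FPKM, is 18 bases.

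The ferritin receptor and the iron chaperone did not pass the test. NCOA4 (ENSG00000266412, chromosome 10, 46005088 to 46030623, minus strand) takes ferritin to the lysosome and measured 56.8, 58.9 and 54.7 FPKM with DMSO and 56.1, 53.4 and 56.7 FPKM with PD. Its log2 fold change was -0.04 (SE 0.04, 95% confidence interval -0.13 to 0.06, limma adjusted p = 0.478). The values of both treatments were interleaved, and the interval stopped short of the change seen for SLC11A2. PCBP1 (ENSG00000169564, chromosome 2, 70087477 to 70089203, plus strand), a gene of 1 exon, measured 28.1, 25.4 and 27.2 FPKM with DMSO and 27.04, 28.6 and 29.3 FPKM with PD. Its log2 fold change was 0.07 (SE 0.05, 95% confidence interval -0.04 to 0.19, limma adjusted p = 0.249). PCBP1 is the least certain of these values, since 1264 of its 1727 exon bases are shared with PCBP1-AS1 on the opposite strand, which measured 1.76 FPKM with DMSO and 0.894 FPKM with PD. NCOA4 has 4 named pseudogenes in the annotation, which could take or give reads.

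**Figure D2:**
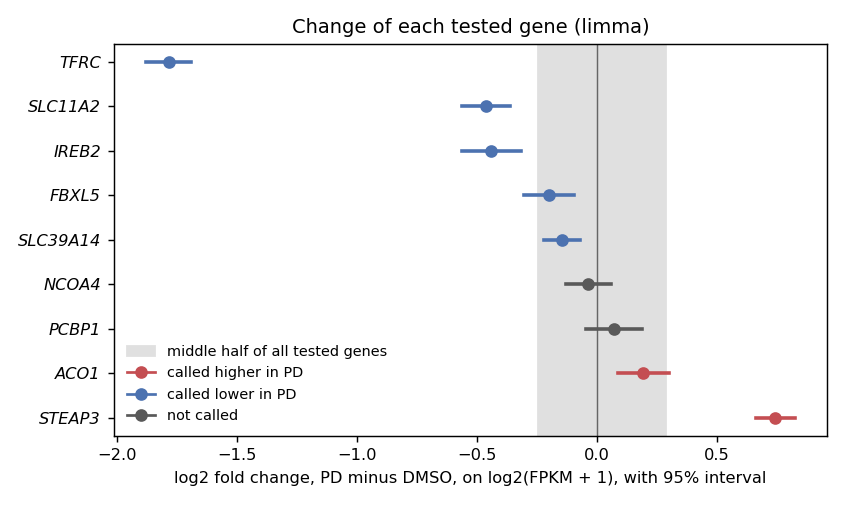
Log2 fold change (PD minus DMSO, on log2(FPKM + 1)) of the 9 tested iron genes with 95% confidence intervals from limma, blue for genes called lower, red for higher and grey for not called. The shaded band runs from -0.25 to 0.29, the quartiles of all 14400 tested genes. TFRC at -1.78, SLC11A2 at -0.46, IREB2 at -0.44 and STEAP3 at 0.74 lay outside it, and the other genes inside.

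FPKM are per length, so levels can be set side by side as far as the lengths hold. The length behind the TFRC values is 7887 bases, against 17376 exon bases in GENCODE release 44, and for the other genes of the group both lengths lay close together. In DMSO the order of mean FPKM was TFRC, SLC39A14, NCOA4, PCBP1, STEAP3, ACO1, IREB2, SLC11A2, FBXL5 and SLC40A1, and no neighbours in it overlapped over the 3 libraries. In PD it was SLC39A14, NCOA4, PCBP1, TFRC, STEAP3, ACO1, IREB2, FBXL5, SLC11A2 and SLC40A1. TFRC went from position 1 to position 4, and FBXL5 and SLC11A2, which overlapped in PD, were the 1 pair of neighbours that could not be ranked. With the GENCODE lengths, an alternative chosen after seeing the data, TFRC measured 40.9 ± 1.69 FPKM with DMSO and 11.5 ± 0.317 FPKM with PD (SD, n = 3 each), at position 3, under SLC39A14 and NCOA4, and at position 6, under STEAP3 and ACO1. Its place among the genes therefore rests on the length used. Only the length was exchanged and the fragments were kept, so the fold change could not move in this comparison. Fragments were not counted anew on the GENCODE exons, and the fold change under that annotation was not tested.

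4 pairs of genes with linked roles were compared within each library, as the difference of their log2(FPKM + 1). The 2 IRP genes moved apart: IREB2 minus ACO1 was -0.20, -0.10 and -0.09 with DMSO and -0.62, -0.86 and -0.81 with PD, a shift of -0.63 between the means (-0.13 ± 0.06 and -0.76 ± 0.13, SD, n = 3 each). FBXL5 minus IREB2, the ligase subunit against its substrate, was -0.35 ± 0.07 with DMSO and -0.11 ± 0.10 with PD (SD, n = 3 each), a shift of 0.24. Both genes fell, and IREB2 fell more. Of the carriers of ferrous iron, SLC39A14 minus SLC11A2 was 2.98 ± 0.03 with DMSO and 3.30 ± 0.01 with PD (SD, n = 3 each), a shift of 0.32, so the ZIP14 mRNA gained on the DMT1 mRNA while both fell. TFRC minus SLC40A1, import against export, shifted by -1.78, which is the change of TFRC alone since SLC40A1 was at or near 0. In each pair the treatments did not overlap, and each gave an exact two-sided permutation p of 0.1, adjusted p of 0.1 over the 4 pairs, which is the smallest that 3 against 3 libraries allow.

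**Figure D3:**
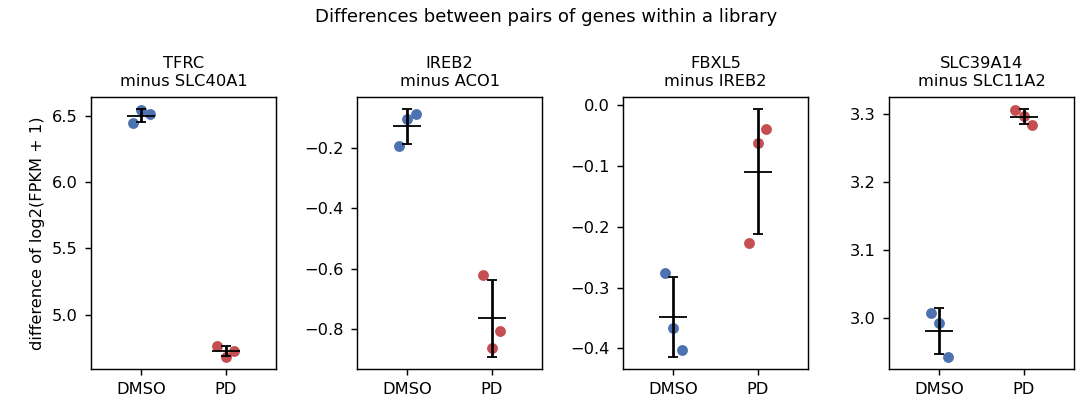
Difference of log2(FPKM + 1) between the 2 genes of each pair in each library, with means and SD (3 DMSO and 3 PD libraries). The vertical scales differ between panels. The treatments were separate in all 4 panels, with shifts of -1.78, -0.63, 0.24 and 0.32 from left to right.

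Genes that work beside the transport proteins were read from a list of 23 transport partners, of which 15 were tested. Of these, 6 rose, none fell and 9 did not pass the test, so that 6 of 15 were called against 58.1% of all tested genes, with a median log2 fold change of 0.03. CYBRD1, a ferrireductase of the cell surface, rose from 5.40 ± 0.418 to 16.4 ± 1.12 FPKM (n = 3 each, SD), and its log2 fold change was 1.44 (limma adjusted p = 5.8e-06). SLC48A1, which exports heme from lysosomes and endosomes, rose from 11.5 ± 0.532 to 27.3 ± 0.849 FPKM (n = 3 each, SD), and its log2 fold change was 1.17 (limma adjusted p = 3.19e-06). Both moved further than STEAP3, and in the same direction. MCOLN1, a lysosomal cation channel that also passes iron, had a log2 fold change of 0.78 (limma adjusted p = 4.59e-05). SLC39A8, a carrier related to ZIP14, rose by 0.29 on the log2 scale (limma adjusted p = 0.00187), where SLC39A14 fell. SLC48A1, MCOLN1 and SLC39A8 share 113, 175 and 197 exon bases with other genes. TFR2, the hepatic transferrin receptor and iron sensor, did not pass the test at 3.95 ± 0.282 and 3.86 ± 0.277 FPKM (SD, n = 3 each, limma adjusted p = 0.77), so the fall of TFRC was not accompanied by a called change of its relative. PCBP2, the second chaperone, was not called either (log2 fold change -0.03, limma adjusted p = 0.619), and its exons overlap other genes on both strands. The mitochondrial iron importers SLC25A37 and SLC25A28 measured 22.3 and 22.4 FPKM with DMSO and 21.9 and 21.2 FPKM with PD, and neither was called (limma adjusted p = 0.593 and 0.175).

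Of the storage and heme release genes, 6 of 6 tested were called higher, as were 31.9% of all tested genes, and their median log2 fold change was 0.71. The ferritin mRNAs carry their IRE in the 5′ UTR like SLC40A1, and not in the 3′ UTR like TFRC. Ferritin went from 1003 ± 94.8 to 1237 ± 22.0 FPKM for the heavy chain FTH1 and from 879 ± 22.1 to 1732 ± 73.2 FPKM for the light chain FTL (SD, n = 3 each, log2 fold changes 0.31 and 0.98, limma adjusted p = 0.00476 and 3.19e-06). FTH1 has 25 and FTL 16 named pseudogenes, so both levels are uncertain. FTH1 also shares 1267 exon bases with BEST1, whose own level was 0.1575 FPKM with DMSO and 0.1306 FPKM with PD. HMOX1, the inducible heme oxygenase that frees iron from heme, rose from 3.92 ± 0.250 to 13.1 ± 0.761 FPKM (n = 3 each, SD), and its log2 fold change was 1.51 (limma adjusted p = 3.47e-06). HMOX2 and the biliverdin reductases BLVRA and BLVRB had log2 fold changes of 0.69, 0.64 and 0.72 (limma adjusted p = 9.52e-06, 2.31e-04 and 9.61e-06), and HMOX2 shares 103 exon bases with NMRAL1.

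Heme synthesis, which ends with the insertion of iron, showed the same direction. All 8 tested genes of the 9 in the list were called higher, against 31.9% of all tested genes, with a median log2 fold change of 0.47. ALAS1, the first and rate-limiting enzyme outside the red cell lineage, went from 35.6 to 49.1 FPKM (log2 fold change 0.45, limma adjusted p = 2.04e-04), and ALAD, the next enzyme, from 5.53 to 13.5 FPKM (1.15, limma adjusted p = 3.23e-06). UROS, a later enzyme of the pathway, followed with 0.71 (limma adjusted p = 1.84e-05). FECH, which inserts the iron, changed least, with 0.19 (limma adjusted p = 0.0204), and its call did not survive the leaving out of DMSO replicate 2 or 3 or PD replicate 1 or 2, with adjusted p of 0.0513 to 0.0689. ALAS2, the enzyme of red cell precursors, was near 0 (0.0272 FPKM with DMSO and 0.00891 FPKM with PD) and was not tested.

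A list of other mRNAs with an IRE and of genes for IRP turnover did not move as one. Of 11 tested genes, 2 rose, 3 fell and 6 did not pass the test (45.5% called, against 58.1% of all tested genes), with a median log2 fold change of -0.10. By voom 9 were called, and 3 without PD replicate 2 or 3. EPAS1, the gene of the hypoxia factor HIF-2α, which has an IRE in its 5′ UTR, had a log2 fold change of 0.13 (limma adjusted p = 0.0177), and this call was lost without PD replicate 2 or 3, with adjusted p of 0.0571 and 0.0612. CUL1, the scaffold of the ligase that FBXL5 joins, was not called (-0.12, limma adjusted p = 0.0666, with 461 exon bases shared with an antisense transcript), but was called under median-of-ratios and upper quartile scaling, by voom and without PD replicate 1. ZC3H12A, the gene of the ribonuclease Regnase-1, which cleaves the TFRC mRNA at its 3′ UTR, fell by 0.43 on the log2 scale (limma adjusted p = 0.00143), from 10.1 ± 0.252 to 7.29 ± 0.760 FPKM (SD, n = 3 each).

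**Figure D4:**
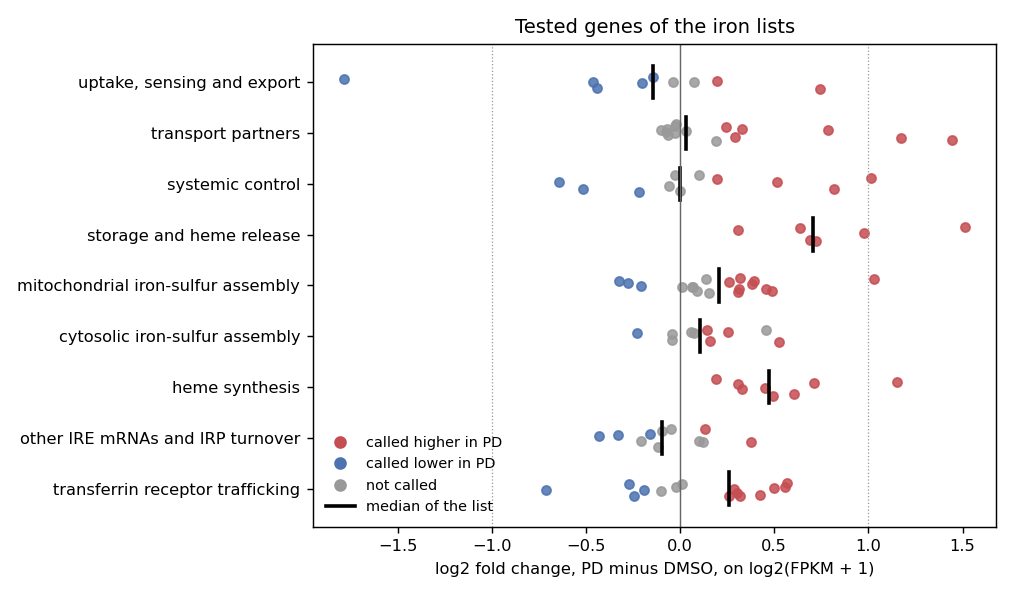
Log2 fold change (PD minus DMSO) of every tested gene in the iron lists, 1 point per gene, coloured by its call, with the list median as a black bar and dotted lines at 2-fold in either direction. TFRC is the 1 point left of -1, the storage and heme synthesis lists lie wholly to the right of 0 with medians of 0.71 and 0.47, and the genes of uptake, sensing and export have a median of -0.15.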

How the data were processed

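The members and gene lists were chosen with earlier results of these data known. Samples were grouped by their treatment labels. Per the paper, poly(A) libraries were made with the NEBNext Ultra kit and sequenced in pairs. The submitters' processing notes name HISAT2, HTSeq 0.6.0 and hg38. The authors deposited FPKM computed from the counts, in a single table, and all of its value columns belong to these 6 libraries. Whether counting used strand is not given in the sources used here.

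Genes averaging 0.5 FPKM or more were tested on log2(FPKM + 1) by limma 3.58.1 (R 4.3.3, intensity-dependent prior, no covariates) with Benjamini-Hochberg adjustment. Fold changes on that scale understate the change of low genes. Calls needed an adjusted p of at most 0.05, with 2-fold counted separately. Log2 differences between paired genes were tested by exact two-sided permutation over libraries. Whole fragments were worked back from the FPKM (within 0.001 of a whole number, for all but 2 genes) and used for depth and for limma voom. The fit was tested on simulated data. The alternatives were a pseudocount of 0.1, no filter, median-of-ratios and upper quartile scaling, voom, a replicate block and leaving out each library.

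All 10 members are named. From each other list, the 2 genes with the highest mean and those called with 2-fold are named, with FTH1, FTL, HMOX1, PCBP2, SLC39A8, TF, TFR2 and HAMP, and 1 gene of that rule is not reported here. HMOX2, BLVRA, BLVRB, MCOLN1, UROS, FECH, ALAS2, ZC3H12A, BMP2, SMAD7, SMAD1, NEO1, ISCU, CLTC and TTC7A were named after their values were seen. The samples came from separate plates of 1 line, so p-values measure the spread between plates.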

Additional observations from a re-analysis of the deposited data

How the results depend on the processing

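Each of the 9 tested iron genes kept its direction and its side of the threshold under every alternative (108 values), with 7 called and 1 changed by 2-fold throughout. TFRC ranged from -1.83 to -1.76 on the log2 scale, STEAP3 from 0.70 to 0.79 and IREB2 from -0.49 to -0.42. Upper quartile scaling moved the median of all tested genes by -0.04 (log2), the most of any scaling, and the share of calls that were higher from 54.8% to 49.4%. Called genes with a 2-fold change numbered 520 over all genes, 1248 with a pseudocount of 0.1, 1735 by voom, and 511 to 561 when 1 library was left out. Without 1 library 7400 to 7957 genes were called, against 8368. The cytosolic iron-sulfur list had 5 called genes, 2 to 5 without 1 library (2 without DMSO replicate 2 or PD replicate 1). The list of other IRE mRNAs and IRP turnover had 5, 9 by voom and 3 to 6 without 1 library (3 without PD replicate 2 or 3). The cause was not tested. Signs turned for 3 uncalled genes: without 1 library TFR2 ran from -0.0722 to 0.010 (above 0 without DMSO replicate 1 or PD replicate 1), PCBP2 from -0.0506 to 0.0070 (above 0 without DMSO replicate 2) and CIAO2B from -0.0027 (without DMSO replicate 2) to 0.711. FECH and EPAS1 lost their calls under upper quartile scaling (adjusted p = 0.054 and 0.0724). SLC25A28 gained one there (0.0447), and CUL1 gained one there (0.0181), under median-of-ratios scaling (0.0291), by voom (0.0484) and without PD replicate 1 (0.0158).

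Deviations from the treatment mean had correlations of -0.027, -0.0046 and 0.0898 for same-numbered libraries. For libraries of different numbers they ran from -0.0835 to 0.0847. With 3 libraries per treatment such values cannot exclude that the numbers pair them. With the replicate block 8032 genes were called, and 7 of the iron genes. The depth leaves SLC40A1 undetermined below 0.0425 FPKM.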

Other observations

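The proteins that carry the transferrin receptor through its cycle were described from a list of 15 genes, all tested. Of these, 8 rose, 4 fell and 3 did not pass the test (80.0% called, against 58.1% of all tested genes), with a median log2 fold change of 0.26, above the 0.01 of all tested genes. AP2M1, a subunit of the clathrin adaptor that binds the receptor's tail, rose from 59.3 ± 2.67 to 88.3 ± 2.65 FPKM (n = 3 each, SD), and its log2 fold change was 0.57 (limma adjusted p = 3.1e-05). SNX3, a sorting nexin that returns the receptor to the cell surface, rose by 0.32 on the log2 scale (limma adjusted p = 2.88e-04). The clathrin heavy chain CLTC fell by 0.24 (limma adjusted p = 0.00278). TTC7A, a scaffold protein, was not called (limma adjusted p = 0.558). CLTC and TTC7A share 275 and 336 exon bases with genes on the opposite strand.

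Iron-sulfur clusters are assembled in mitochondria and completed in the cytosol. Of 18 tested mitochondrial genes, 9 rose, 3 fell and 6 did not pass the test (66.7% called, against 58.1% of all tested genes), with a median log2 fold change of 0.21. FDXR, the ferredoxin reductase, went from 4.28 to 9.80 FPKM (log2 fold change 1.03, limma adjusted p = 1.51e-05). The scaffold ISCU and the assembly factor ISCA1 rose by 0.32 and 0.26 (limma adjusted p = 1.99e-04 and 7.08e-04), whereas the chaperone HSPA9 fell by 0.21 (limma adjusted p = 0.00105). ISCA1 has 5 named pseudogenes. Of 10 tested cytosolic genes, 4 rose, 1 fell and 5 did not pass the test, with a median of 0.11. Thus 5 of 10 were called, against 58.1% of all tested genes, and 2 were called without DMSO replicate 2 or PD replicate 1. CIAO1 was not called (limma adjusted p = 0.109). CIAO2B was at 24.6 FPKM in DMSO replicate 2 against 63.5 and 68.0 FPKM in the other DMSO libraries and 59.8 to 68.7 FPKM in PD, and was not called (limma adjusted p = 0.295).

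The list for systemic iron control had 11 tested genes, of which 4 rose, 3 fell and 4 did not pass the test (63.6% called, against 58.1% of all tested genes), with a median log2 fold change of 0.00. Signals of the hepcidin pathway went both ways. BMP6, the ligand that liver endothelium makes when iron is high, rose by 0.51 (limma adjusted p = 8.49e-04), and BMP2, its companion ligand, fell by 0.64 (limma adjusted p = 3.82e-05). The other genes called lower were SMAD7 (log2 fold change -0.51, limma adjusted p = 6.4e-05) and SMAD1 (-0.22, limma adjusted p = 0.0211). When 1 library was left out, 2 or 3 genes of this list were called lower. ERFE, the gene of erythroferrone, went from 4.14 to 9.39 FPKM (1.02, limma adjusted p = 1.33e-05). NEO1, a hemojuvelin-binding receptor, rose by 0.82 (limma adjusted p = 1.14e-05), and the protease FURIN by 0.20 (limma adjusted p = 0.0103). BMP6 and SMAD1 share 419 and 376 exon bases with genes on the opposite strand.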
